A study of Mus musculus with 15 samples.

Results

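The potassium channel genes of the mouse ventricle were taken as every gene of the deposited table whose symbol begins with Kcn, together with Abcc8 and Abcc9, the sulphonylurea receptors that form ATP-sensitive potassium channels with Kcnj proteins. This gave 81 genes of the 16199 in the table, and 80 of them are described here. Expression is in RPKM, which scales the reads on a gene's constitutive coding exons to their length and to the mapped reads of the library. This puts genes and hearts on a common scale, though shifts between libraries over all genes can remain. Changes are given for the 22 of these members whose mean over all 15 hearts reached 1 RPKM.

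Potassium channels let potassium leave the cell and so end the action potential and hold the resting potential of cardiac myocytes. The voltage-gated channels open on depolarization, the inward rectifiers set the resting potential, the ATP-sensitive channels follow the energy state of the cell, and the acetylcholine-gated channels answer the vagus nerve. The adult mouse ventricle repolarizes mainly through a fast transient outward current and several delayed rectifiers, whereas the human ventricle relies more on the rapid and slow delayed rectifiers. CELF2 (also named CUGBP2) is an RNA-binding protein of the CELF family, which regulates splicing in the nucleus and mRNA stability in the cytoplasm.

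The study followed ventricles after induction of CELF2. All 15 mice were of the FVB strain, 14 to 16 weeks old, carried the MHCrtTA transgene and ate food with doxycycline, at 2 g/kg by the sample labels and the study's methods, while another part of the study's text gives a different amount. The rtTA activator is driven by the cardiac myosin heavy chain (Myh6) promoter, so the transgene is meant to act in cardiac myocytes alone, while the libraries hold RNA of all ventricular cells. The 12 induced mice also carried TRECUGBP2, which encodes human FLAG-tagged CELF2, and were fed doxycycline for 12 h, 24 h, 72 h or 7 d, with 3 mice per time point. The 3 control mice had MHCrtTA without TRECUGBP2 and were fed doxycycline for 72 h. Atria and a small part of the apex were removed before RNA extraction.

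Cugbp2, the mouse gene to which the transgene's reads could map, was at 9.82 ± 1.37 RPKM (SD, n = 3) in control hearts and at 324 ± 54.8 RPKM (SD, n = 3) at 7 d, with intermediate group means at the other time points. The sample titles carry a numeric code whose meaning none of the sources used here gives, called title code A, B or C below. Each group had 1 heart of code A, with a further code A heart at 72 h. The other control, 12 h and 24 h hearts were of code B, and the other 72 h and 7 d hearts were of code C. The 3 code C libraries listed 1463 to 1551 genes at 0, against 1707 to 1977 in the other 12. Y-linked mRNA was present in 1 of 3 control, 0 of 3 12 h, 2 of 3 24 h, 3 of 3 72 h and 3 of 3 7 d hearts. Time, code and Y-linked mRNA were therefore not independent, and fits with these terms were run as alternatives. The 6 ventricular myocyte markers summed to 33586 RPKM or more in every heart, but single genes changed. By limma 1 of the 6 was higher and 1 lower at 7 d than in control hearts, beside 5.83% and 4.16% of all tested genes. At 7 d against 12 h 1 was higher and 3 were lower, beside 11.8% and 3.88% of all tested genes. Of the markers of other cell types, 2 of 3 tested adipocyte genes and 1 of 2 tested neuronal or glial genes were lower at 7 d than in control hearts. Over all tested genes 4.16% were lower. The summed neuronal and glial level was 15.3 to 19.2 RPKM in control and 9.60 to 11.3 RPKM at 7 d. Most of this sum was 1 gene, Uchl1, with means of 13.7 RPKM in control and 7.70 RPKM at 7 d. The adipocyte genes summed to 11.3 to 18.1 RPKM in control and 5.85 to 7.47 RPKM at 7 d. The part of these cells in the results on channel genes was not tested.

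CELF proteins bind GU-rich sequence, so the 3' UTRs of the members were searched for the GU-rich element TGTTTGTTTGT on the mRNA strand alone. The element was present in 2 of the 78 members with an annotated 3' UTR, which is 2.56%, against 3.29% of 15354 genes of the table. Both genes are among the tested members, of which 21 have an annotated 3' UTR (9.52%, against 3.74% of 10208 tested genes). Only the longest annotated 3' UTR of each gene was searched. Its median length was 1622 bases in the tested members and 1157 bases in the tested genes, and the shares were not adjusted for length. Kcnj2 and Kcnk3 are shown with the element in capitals and, like all positions here, in mm9 coordinates.
Kcnj2, chr11:110936826-110936855, plus strand: tttttcgttTGTTTGTTTGTtcgttttttt
Kcnk3, chr5:30926173-30926202, plus strand: gttttttttTGTTTGTTTGTttttttgttt
A match of these letters is a description of the reference sequence and not a binding site measured here. The study names Kcnj2 among mRNAs bound by CELF1, a relative of CELF2, and lower after CELF1 induction. Kcnj2 encodes Kir2.1, the main subunit of the inward rectifier IK1, and Kcnk3 encodes the background channel TASK-1. Neither passed the test at any time point.

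Most members were at very low levels in the ventricle. Of the 80 genes, 10 had a mean of 10 RPKM or more, 12 a mean of 1 to 10 RPKM and 58 a mean under 1 RPKM, 29 of these under 0.1 RPKM. No member was listed at 0 in every heart, and 28 were listed at 0 in at least 1 heart. The inward rectifiers with their ABCC partners were the best represented class, with 9 of 13 genes at 1 RPKM or more and a median of 9.44 RPKM. Among the 33 voltage-gated alpha subunits 7 reached 1 RPKM, and their median was 0.0780 RPKM. The 2-pore channels contributed 2 of 11 genes, the calcium- or sodium-activated channels 2 of 8 and the accessory subunits 2 of 15. Close to the limit of 1 RPKM, Kcnip3 (1.09 RPKM) and Kcnk9 (1.42 RPKM) were inside it, and Kcne4 (0.982 RPKM) and Kcnk6 (0.964 RPKM) were outside. All 22 tested members had a control mean of at least 1 RPKM, so none entered the test through an induced group alone.

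**Figure D1:**
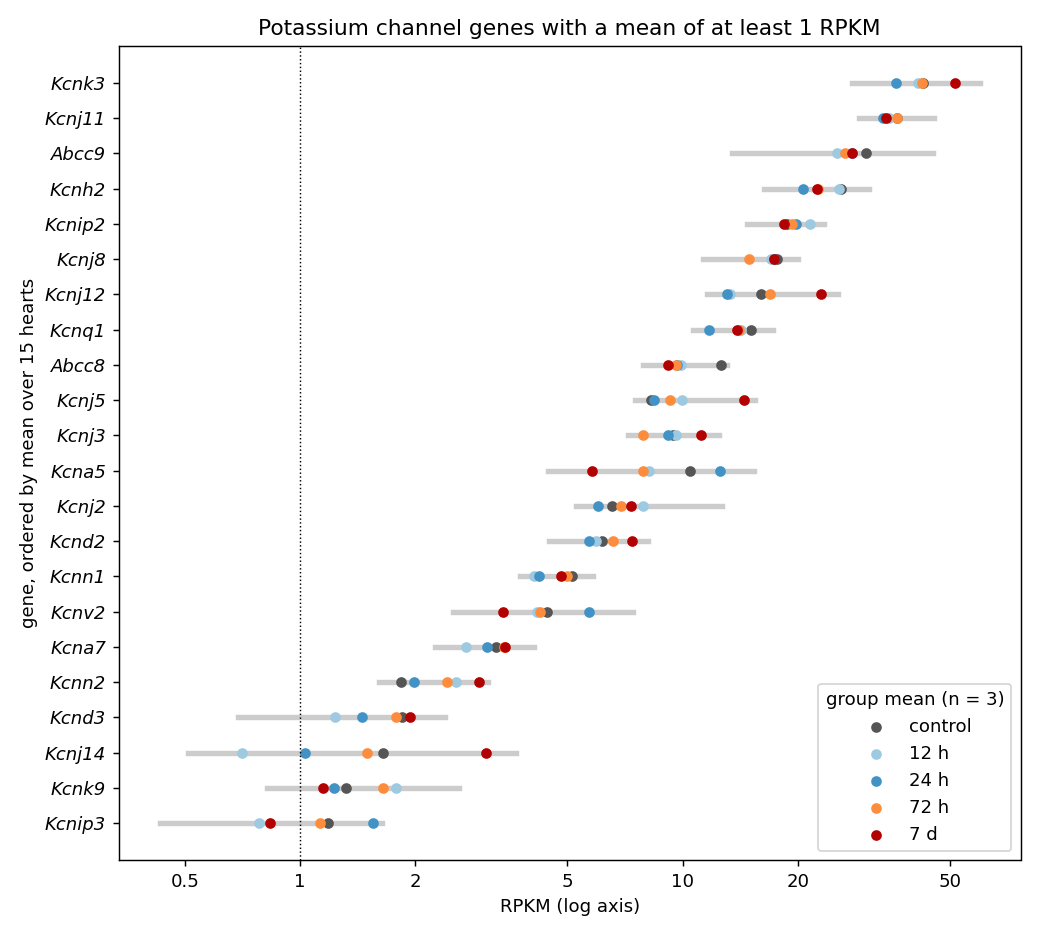
The 22 tested potassium channel genes, with RPKM on a log axis and genes ordered by their mean over 15 hearts. Points are group means (n = 3), grey bars span the lowest to the highest heart, and the dotted line marks 1 RPKM. The means run from 42.7 RPKM for Kcnk3 to 1.09 RPKM for Kcnip3. The 7 d mean is the highest group mean for Kcnk3, Kcnj12, Kcnj5, Kcnj3, Kcnd2, Kcna7, Kcnn2, Kcnd3 and Kcnj14.

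Kcnk3 had the highest level, with a mean of 42.7 RPKM over the 15 hearts. It was followed by Kcnj11 (35.0 RPKM) and Abcc9 (27.5 RPKM), which encode Kir6.2 and SUR2, the pore and receptor of the ventricular ATP-sensitive channel. Kcnh2 (ERG, 23.4 RPKM), Kcnip2 (KChIP2, 19.5 RPKM), Kcnj8 (Kir6.1, 16.8 RPKM), Kcnj12 (Kir2.2, 16.5 RPKM), Kcnq1 (13.8 RPKM), Abcc8 (SUR1, 10.2 RPKM) and Kcnj5 (Kir3.4, 10.1 RPKM) completed the 10 highest. The order is coarse. In control hearts the ranges of 16 of the 21 neighbouring pairs overlapped, and from Kcnk3 down to Kcnq1 each gene overlapped the next. The ranges were separate between Kcnq1 and Abcc8, Abcc8 and Kcna5, Kcnj5 and Kcnj2, Kcnd2 and Kcnn1, and Kcna7 and Kcnd3.

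During the first 72 h no potassium channel gene passed the test. With limma on log2(RPKM + 0.5) and an adjusted p under 0.05 required, 0 of 22 members were called at 12 h against control, where 0.388% of the 10557 tested genes were. The count was also 0 of 22 at 24 h (0.0947% of all tested genes), at 72 h (0.597%) and for 24 h against 12 h (0.559%). At an unadjusted p under 0.05 the members numbered 4 at 12 h, 2 at 24 h, 2 at 72 h and 2 for 24 h against 12 h, where 12.3%, 9.21%, 13.7% and 6.75% of all tested genes did so. The 4 comparisons with control share the same 3 control hearts. The median change of the members was -0.07 at 12 h, -0.11 at 24 h and -0.05 at 72 h, beside -0.10, -0.10 and -0.08 over all tested genes. No other tool was run. With title code as a term Abcc8 and Kcnj14 were called lower at 12 h and Abcc8 at 72 h, while the calls over all genes went from 11 higher and 30 lower to 117 and 655 at 12 h, and from 25 and 38 to 132 and 363 at 72 h.

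At 7 d 2 of the 22 members were higher than in control hearts and 0 were lower, while 5.83% of all tested genes were called higher and 4.16% lower. They were Kcnj5, a subunit of the acetylcholine-gated channel, and Kcnn2, a calcium-activated channel. The median change of the 22 members was -0.03 on the log2 scale, beside 0.03 over all tested genes, with 10 members above and 12 below zero. Against 12 h, 3 of 22 members were higher at 7 d (11.8% of all tested genes) and 0 were lower (3.88%). These were Kcnj12, Kcnj5 and Kcnj14, all inward rectifiers. The median change was 0.10 over the members and 0.13 over all tested genes, and median-ratio scaling brought the latter to 0. With median-ratio scaling the calls over all genes changed from 1241 higher and 410 lower to 784 higher and 744 lower, and 2 members remained called, since Kcnj5 no longer was. With Y-linked mRNA as a term, present in all 7 d hearts and in 0 of the 12 h hearts, limma called none of the 3 against 12 h. In ventricular tissue a change in the number of cells of a type and a change in RNA per cell cannot be told apart.

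**Figure D2:**
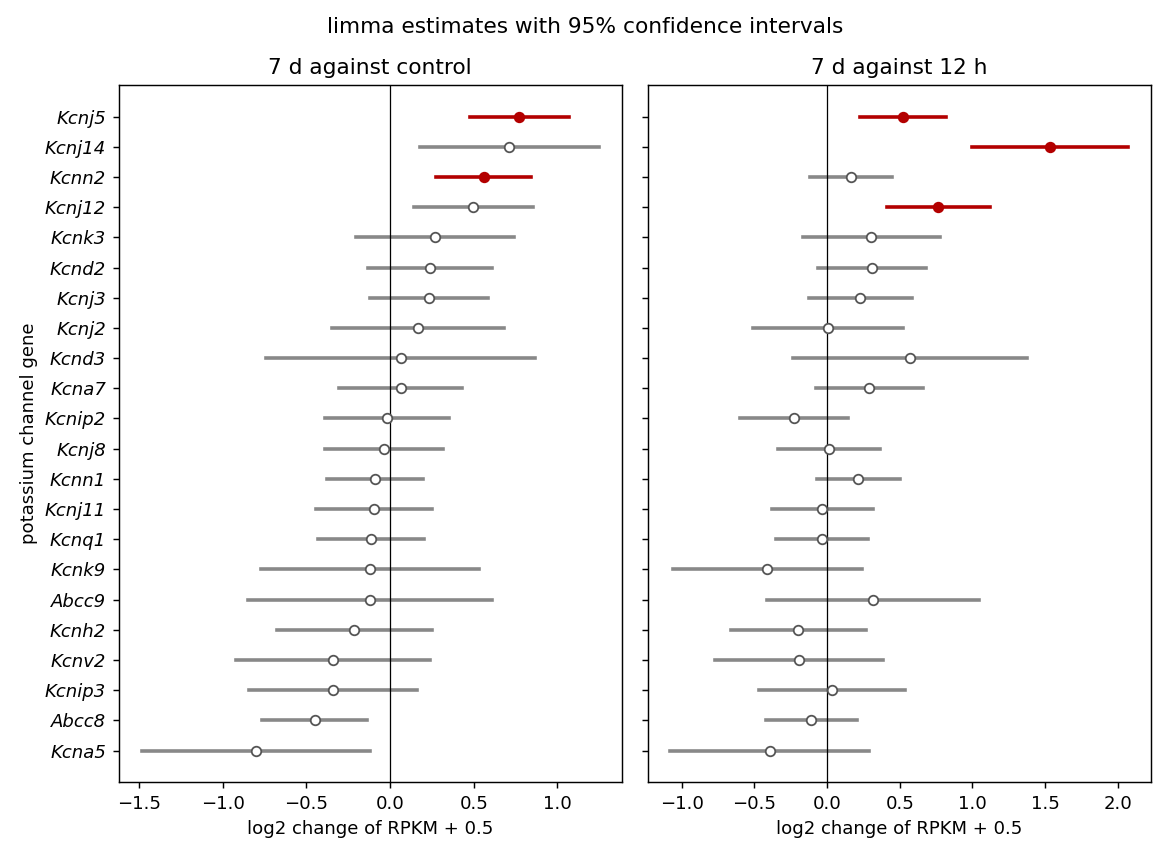
Estimated change of each tested potassium channel gene at 7 d against control (left) and against 12 h (right), on the log2(RPKM + 0.5) scale, with 95% confidence intervals from limma. Filled red points have an adjusted p under 0.05, and genes are ordered by the left panel. Kcnj5 is called in both panels, and the intervals of Kcna5 (-0.80) and Abcc8 (-0.45) lie below zero on the left without passing the adjusted test.

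**Figure D3:**
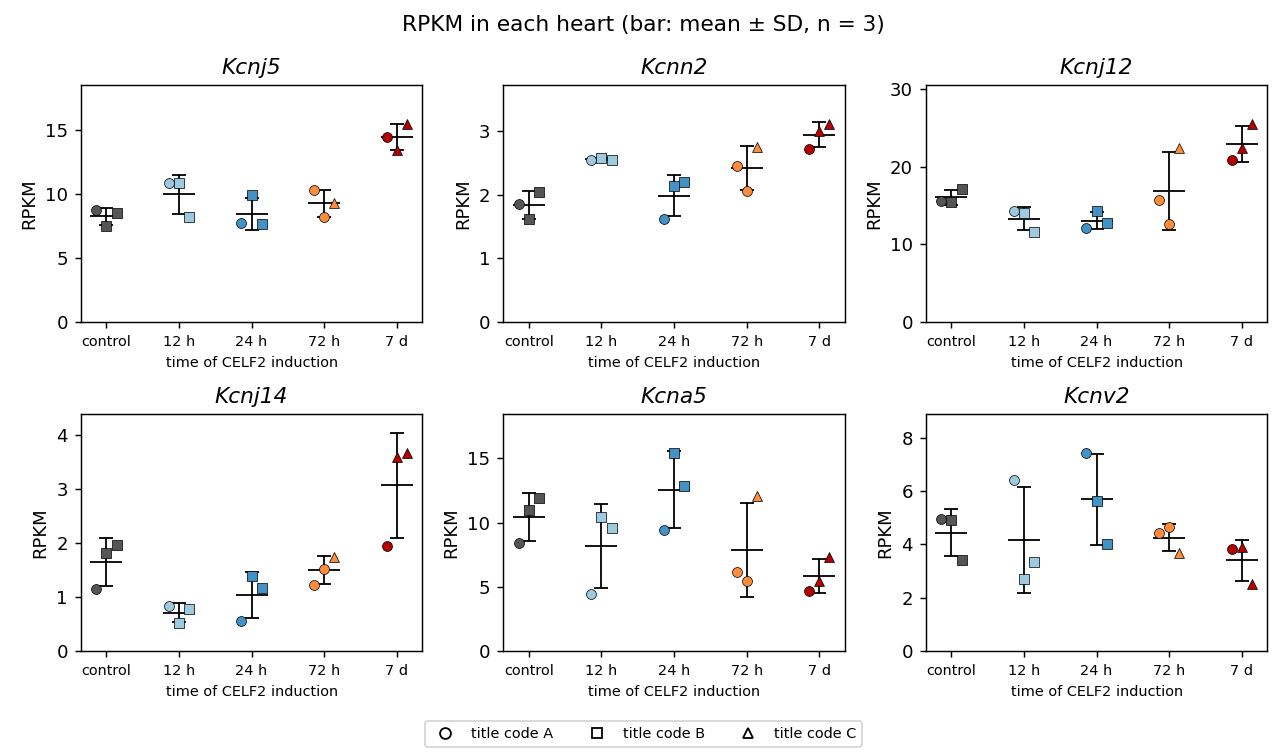
RPKM in each heart for the 4 called potassium channel genes, Kcna5 and Kcnv2, by time of CELF2 induction, with mean ± SD (n = 3) as black bars and title code A, B or C as circles, squares or triangles. The 7 d hearts of Kcnj5 lie above all other hearts, and for Kcnj12 the code C heart at 72 h (22.49 RPKM) reaches the 7 d range.

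Kcnj5 encodes Kir3.4, which joins with Kir3.1 (Kcnj3) in the acetylcholine-gated channel. It was at 8.75, 7.52 and 8.52 RPKM in control hearts and 14.48, 13.47 and 15.44 RPKM at 7 d. Between these it was at 10.88, 10.85 and 8.21 RPKM at 12 h, 7.71, 9.91 and 7.69 RPKM at 24 h, and 10.34, 8.21 and 9.29 RPKM at 72 h. The 3 hearts at 7 d were above the other 12. The mean was 1.75 times the control mean, a log2 change of 0.77 (SE 0.14, limma adjusted p = 0.00266). The same call was made whichever heart was left out, and with title code or Y-linked mRNA as a term, but not with both (adjusted p = 0.399). Within title code A the 7 d heart had 14.48 and the control heart 8.75 RPKM. Against 12 h the change was 0.52 (SE 0.14, limma adjusted p = 0.0202), and it was called in 9 of 17 alternatives. This call was lost with median-ratio scaling (adjusted p = 0.0541), quantile normalization (0.0763), title code (0.0905), Y-linked mRNA (0.315) or both as terms (0.12, adjusted p = 0.903), and with the 2 groups fitted alone (0.0708). It was also lost without the 12 h heart A6741 (adjusted p = 0.0853) or the 7 d heart A6837 (adjusted p = 0.0784). Kcnj5 lies at chr9:32122368-32151822 on the minus strand.

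Kcnj3, its partner, was at 9.42 ± 1.11 RPKM in control hearts and 11.2 ± 1.21 RPKM at 7 d (SD, n = 3), with ranges that overlapped. Its change was 0.23 (95% confidence interval -0.12 to 0.59, limma adjusted p = 0.430). The ratio of Kcnj5 to Kcnj3 was 0.890 ± 0.170 in control hearts and 1.31 ± 0.205 at 7 d (SD, n = 3), and the ranges did not overlap (0.716 to 1.05 and 1.17 to 1.54). An annotated exon of Kcnj3 overlaps the lincRNA Gm17595 on the opposite strand.

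Kcnj5 and Kcnj3 are strongly expressed in atria, which had been removed, and atrial mRNA varied between hearts. The summed level of 5 atrial marker genes was 62.2 to 153 RPKM in control, 62.4 to 534 at 12 h, 98.0 to 226 at 24 h, 57.5 to 149.8 at 72 h and 121 to 347 RPKM at 7 d. Of the 4 atrial markers tested 0 were called by limma at 7 d against control, beside 9.99% of all tested genes. Bmp10 was under 1 RPKM in every heart. The 12 h heart A6740 had the most Myl7, an atrial myosin light chain, with 103 RPKM and 10.85 RPKM of Kcnj5, while A6742 had 12.8 RPKM of Myl7 and 10.88 RPKM of Kcnj5. At 7 d Myl7 and Kcnj5 had the same order, with 4.04 and 13.47 RPKM in A6836, 6.86 and 14.48 in A6838, and 29.40 and 15.44 RPKM in A6837, which also had the most Sln (23.39 RPKM) and Nppa (215.44 RPKM) of the 3. Most of the atrial sum at 7 d was Nppa, the natriuretic peptide gene, at 75.3 to 215 RPKM against 22.5 to 64.1 RPKM in control hearts (log2 change 1.87, limma adjusted p = 0.0744). The other markers did not separate these groups. Control and 7 d means were 17.7 and 13.4 RPKM for Myl7, 13.2 and 14.2 for Sln, and 33.9 and 39.2 for Myl4, with overlapping ranges. The part of atrial tissue in the Kcnj5 result was not tested.

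The inward rectifier IK1, the current that holds the resting potential, is built from Kir2 subunits. The members include 4 Kir2 genes, and the part of each in IK1 was not measured. Kcnj12 encodes Kir2.2 and was the most expressed of these. It was at 15.60, 15.46 and 17.18 RPKM in control hearts, 14.34, 14.03 and 11.58 at 12 h, 12.16, 14.29 and 12.76 at 24 h, 15.71, 12.66 and 22.49 at 72 h, and 20.93, 22.47 and 25.48 RPKM at 7 d. All 12 h and 24 h hearts were below all controls, and all 7 d hearts were above them. Neither difference from control was called, with a log2 change at 7 d of 0.50 (SE 0.17, limma adjusted p = 0.0731). The difference between 7 d and 12 h was called, at 0.77 (SE 0.17, limma adjusted p = 0.00713) or 1.72 times the mean. At 7 d against control Kcnj12 was called in 4 of 17 alternatives, among them median-ratio scaling (adjusted p = 0.0283), and with title code and Y-linked mRNA both as terms the change was -0.013 (adjusted p = 0.983). The 3 code C hearts held 22.47 to 25.48 RPKM of Kcnj12 and no other heart over 20.93 RPKM, and with title code as a term the change from 12 h was 0.49 and not called (adjusted p = 0.0677). Kcnj12 lies at chr11:60836066-60884633 on the plus strand.

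Kcnj14, which encodes Kir2.4, had the widest swing of any tested member. Its values were 1.15, 1.82 and 1.97 RPKM in control hearts, 0.83, 0.51 and 0.78 RPKM at 12 h, and 0.56, 1.38 and 1.16 RPKM at 24 h. They were 1.22, 1.52 and 1.74 RPKM at 72 h and 1.95, 3.59 and 3.66 RPKM at 7 d. The 12 h hearts were all below the control hearts, and the lowest 7 d heart, at 1.95 RPKM, was within the control range. The log2 change was -0.82 (SE 0.25, limma adjusted p = 0.207) at 12 h and 0.71 (SE 0.25, limma adjusted p = 0.0879) at 7 d, both against control, and neither was called. From 12 h to 7 d it was 1.53 (SE 0.25, limma adjusted p = 0.00123), with means 4.34 times apart. With title code as a term Kcnj14 was also called lower at 12 h (-0.82, adjusted p = 0.0241), and without the 7 d heart A6838 it was called higher at 7 d than in control. The lower 7 d heart was of code A and the higher pair of code C. Kcnj14 lies at chr7:53071837-53080117 on the minus strand, and it was near the low end of the tested range, where the added 0.5 RPKM makes the log2 change smaller than the ratio of means.

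Kcnj2, the gene shown with a GU-rich element, was at 6.53 ± 0.814 RPKM in control hearts and 7.35 ± 0.407 RPKM at 7 d (SD, n = 3). Its change was 0.17 with a 95% confidence interval of -0.35 to 0.68. At 12 h the heart A6742 stood apart with 12.65 RPKM, against 5.80 and 5.25 RPKM in the other hearts of that group. Kcnj4, the remaining Kir2 gene, had a mean of 0.765 RPKM and was not tested. Its group means were 1.02 ± 0.212 RPKM in control, 0.530 ± 0.0458 at 12 h, 0.777 ± 0.150 at 24 h, 0.710 ± 0.444 at 72 h and 0.783 ± 0.237 RPKM at 7 d (SD, n = 3).

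Kcnn2 encodes SK2, a small-conductance channel opened by calcium. It was at 1.85, 1.61 and 2.04 RPKM in control hearts, 2.55, 2.58 and 2.55 at 12 h, 1.61, 2.14 and 2.19 at 24 h, 2.45, 2.05 and 2.75 at 72 h, and 2.72, 2.99 and 3.10 RPKM at 7 d. The 12 h, 72 h and 7 d hearts were all above the controls, by the smallest margin at 72 h. Only the 7 d change was called, at 0.56 (SE 0.13, limma adjusted p = 0.0155) or 1.60 times the control mean. The change at 12 h was 0.40 (SE 0.13, limma adjusted p = 0.250), and that between 7 d and 12 h was 0.17 (SE 0.13, limma adjusted p = 0.422), which turned to -0.093 with Y-linked mRNA as a term and to -0.32 with title code as well. The call at 7 d was lost without the 7 d heart A6836 (adjusted p = 0.0637), the 7 d heart A6837 (adjusted p = 0.0602) or the control heart A6743 (adjusted p = 0.0776). It was also lost with Y-linked mRNA as a term (adjusted p = 0.199).

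Kcnn1, encoding SK1, was higher in level than Kcnn2, with 5.15 ± 0.257 RPKM in control hearts and 4.82 ± 0.388 RPKM at 7 d (SD, n = 3), and its change was -0.09 (95% confidence interval -0.38 to 0.20). The other calcium-activated genes of the list were under the limit, with means of 0.117 RPKM for Kcnn3, 0.260 RPKM for Kcnn4 and 0.181 RPKM for Kcnma1. Kcnmb1 and Kcnmb4, regulatory subunits of the large-conductance channel Kcnma1, had means of 0.719 and 0.0880 RPKM. Kcnmb1 and Kcnma1 are typical of smooth muscle, whose 5 markers summed to 96.1 to 234 RPKM over all hearts.

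The genes of the ATP-sensitive channels were among the highest and gave no call. Kcnj11 was at 36.4 ± 4.91 RPKM in control hearts and 34.1 ± 4.42 RPKM at 7 d (SD, n = 3), a change of -0.10 with a 95% confidence interval of -0.44 to 0.25. Kcnj8 was at 17.6 ± 1.27 and 17.3 ± 3.12 RPKM, and its interval was -0.39 to 0.31. Abcc9 ranged from 13.46 to 45.22 RPKM, both at 12 h, and its interval at 7 d was the widest of the 4 (-0.85 to 0.61). Its mean was 33.6 RPKM in the 6 code A hearts and 22.9 RPKM in the 6 code B hearts. Only code A includes 72 h and 7 d hearts, but at control, 12 h and 24 h the code A heart was above both code B hearts. The same held for Kcnd3 (2.17 and 1.18 RPKM). Kcnj8 and Abcc9 are also expressed by pericytes. The 4 pericyte markers summed to 107 to 137 RPKM in control and 120 to 156 RPKM at 7 d. By limma 0 of these 4 were called at 7 d against control, beside 9.99% of all tested genes.

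Abcc8, the receptor best known from pancreatic beta cells and atria, was lower in level than in control hearts at every time of induction without passing the test. It was at 12.15, 12.68 and 13.03 RPKM in control hearts, 9.59, 11.05 and 9.01 at 12 h, 10.16, 9.82 and 9.02 at 24 h, 8.51, 8.03 and 12.33 at 72 h, and 7.90, 9.56 and 9.96 RPKM at 7 d. All induced hearts except A6750 at 72 h were below the lowest control. The changes were -0.34, -0.37, -0.40 and -0.45 at the 4 time points (SE 0.15 each), with limma adjusted p-values of 0.362, 0.458, 0.248 and 0.0663. The median change over all tested genes was -0.10, -0.10, -0.08 and 0.03 in the same comparisons. These comparisons share their control hearts and so are not independent. At 7 d Abcc8 was called lower with median-ratio scaling (adjusted p = 0.0154), with quantile normalization (adjusted p = 0.0110) and with title code as a term (-0.72, adjusted p = 0.00295), and at 72 h without A6750. The adjusted p at 7 d ranged from 0.00295 to 0.265 over the alternatives. The ratio of Kcnj11 to Abcc8 was 2.88 ± 0.290 in control hearts and 3.72 ± 0.106 at 7 d (SD, n = 3).

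**Figure D4:**
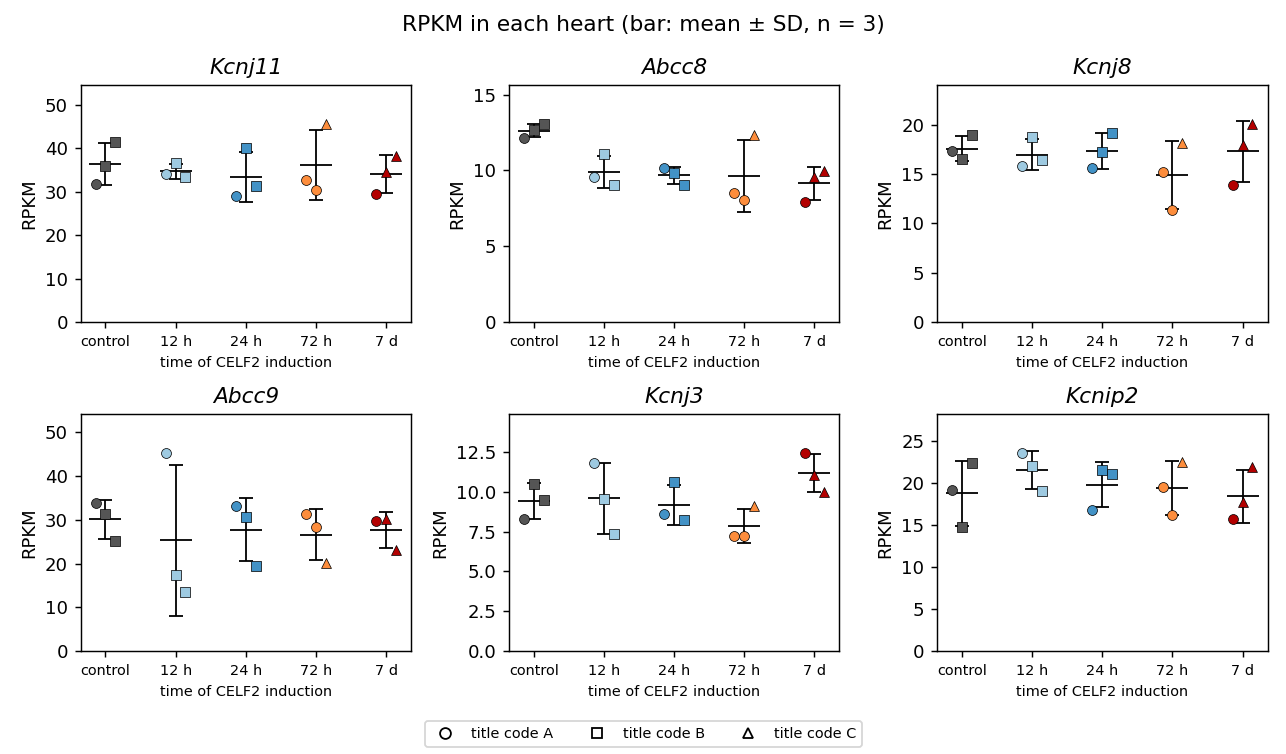
RPKM in each heart for 4 genes of the ATP-sensitive channels, for Kcnj3 and for Kcnip2, drawn as in the plot of called genes with mean ± SD (n = 3) and symbols for title code. Abcc8 control hearts (12.15 to 13.03 RPKM) lie above 11 of the 12 induced hearts, and Abcc9 spreads from 13.46 to 45.22 RPKM within the 12 h group.

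No gene of the transient outward current, the main early repolarizing current of mouse ventricle, passed the test. Kcnd2 (Kv4.2) was at 6.14 ± 0.372 RPKM in control hearts and 7.37 ± 0.947 RPKM at 7 d (SD, n = 3), a change of 0.24 with a 95% confidence interval of -0.13 to 0.61. Kcnd3 (Kv4.3) was at 1.85 ± 0.685 and 1.94 ± 0.622 RPKM, with an interval of -0.74 to 0.87. Kcnip2, the accessory subunit that brings Kv4 channels to the membrane, was at 18.7 ± 3.85 and 18.4 ± 3.14 RPKM, with an interval of -0.39 to 0.35. Kcna4 (Kv1.4), the slow component, had a mean of 0.277 RPKM. Kcnip3, a relative of Kcnip2 best known from neurons, was at 1.11, 0.79 and 1.64 RPKM in control, 0.82, 0.99 and 0.53 at 12 h, 1.38, 1.64 and 1.64 at 24 h, 1.03, 0.86 and 1.49 at 72 h, and 0.97, 0.43 and 1.10 RPKM at 7 d. Its 7 d and control hearts overlapped (-0.34, SE 0.23, limma adjusted p = 0.419).

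Kcna5 encodes Kv1.5, a main delayed rectifier subunit of mouse ventricle. It was at 8.38, 11.00 and 11.94 RPKM in control hearts, 4.45, 10.44 and 9.60 at 12 h, 9.40, 15.39 and 12.88 at 24 h, 6.12, 5.45 and 12.07 at 72 h, and 4.70, 5.44 and 7.28 at 7 d. The 7 d values were all below the control values, but overlapped those at 12 h and 72 h. The change of -0.80 (SE 0.32) was the largest decrease of any tested member at 7 d, with one of the larger errors, and did not pass the test (limma adjusted p = 0.134). In each group the code A hearts were the lowest. The mean was 6.42 RPKM in code A and 11.9 RPKM in code B, but only code A includes 72 h and 7 d hearts. With title code as a term Kcna5 was called lower at 7 d (limma adjusted p = 0.0294). Kcna1, Kcna2 and Kcnc1, further delayed rectifier subunits, had means of 0.441, 0.201 and 0.0780 RPKM. Kcnv2, a silent subunit that modifies other voltage-gated channels, was at 4.96, 4.92 and 3.41 RPKM in control hearts and at 3.82, 3.88 and 2.51 RPKM at 7 d. At 12 h Kcnv2 was at 6.42, 2.69 and 3.35 RPKM, at 24 h at 7.41, 5.61 and 4.02 RPKM and at 72 h at 4.42, 4.63 and 3.67 RPKM. These groups overlapped (7 d against control -0.34, SE 0.27, limma adjusted p = 0.494), and the change was 0.021 with Y-linked mRNA as a term.

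The rapid and slow delayed rectifiers were represented by their pore subunits. Kcnh2 was at 26.0 ± 4.44 RPKM in control hearts and 22.4 ± 4.20 RPKM at 7 d, and Kcnq1 at 15.1 ± 1.59 and 13.9 ± 2.02 RPKM (SD, n = 3). Their intervals at 7 d were -0.68 to 0.25 and -0.43 to 0.20. The accessory subunits Kcne1 and Kcne2 had means of 0.361 and 0.00267 RPKM, and Kcne2 was listed at 0 in every heart except A6750 at 72 h (0.04 RPKM).

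The background channel Kcnk3 was at 35.97, 42.37 and 48.99 RPKM in control hearts, 37.65, 40.86 and 44.92 at 12 h, 27.69, 42.72 and 38.12 at 24 h, 37.05, 31.30 and 58.34 at 72 h, and 39.88, 55.12 and 59.74 RPKM at 7 d. The 3 highest hearts were the 3 of code C, and the 7 d and control ranges overlapped. Its change at 7 d was 0.27 (SE 0.22, limma adjusted p = 0.514), and with title code and Y-linked mRNA both as terms it was -0.22. Kcnk1 and Kcnk6, further background channels, had means of 0.323 and 0.964 RPKM. Kcnk9 (TASK-3) and Kcna7 (Kv1.7), the remaining tested members, were at 1.32 ± 0.501 and 3.26 ± 0.551 RPKM in control hearts and 1.15 ± 0.284 and 3.43 ± 0.572 RPKM at 7 d (SD, n = 3).

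Proteins that anchor, regulate or degrade these channels were read from a list of 30 genes, of which 26 were tested. By limma 0 were called at 12 h, 24 h or 72 h. At 7 d against control 1 was higher (5.83% of all tested genes) and 2 were lower (4.16%). Rnf207, a ubiquitin ligase that regulates the Kcnh2 channel, fell from 42.04, 45.23 and 33.30 RPKM in control hearts to 18.37, 20.41 and 20.80 RPKM at 7 d (log2 change -0.99, SE 0.17, limma adjusted p = 0.00192). Klf15, a transcription factor that drives Kcnip2, fell by 0.72 on the log2 scale (SE 0.21, limma adjusted p = 0.0447), from 22.6 ± 4.48 to 13.5 ± 1.51 RPKM (SD, n = 3). Its level did not move one way with time, at 11.4 ± 1.06 RPKM at 12 h, 23.2 ± 4.04 at 24 h and 17.3 ± 6.23 RPKM at 72 h (SD, n = 3). The mRNAs of Kcnh2 and Kcnip2 were not called, and channel protein was not measured here. Calm3, a calmodulin gene whose product is the calcium sensor of the SK channels, rose by 0.34 (SE 0.10, limma adjusted p = 0.0456). Against 12 h, Calm3, Gnai2 and Nedd4 were higher at 7 d (3 of 26, beside 11.8% of all tested genes) and Rnf207 was lower (1 of 26, beside 3.88%).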

How the data were processed

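Strand-specific paired-end RNA-seq of poly(A)+ RNA was analysed from 15 ventricles. The authors mapped reads to mm9 with Bowtie and TopHat (versions not given in the sources used here), kept uniquely mapping reads and deposited RPKM per gene over constitutive coding sequence, scaled to nonribosomal and nonmitochondrial reads. Values carry 2 decimals and no read totals, so depth is unknown and precision rests on how far hearts of a group differ. Identical libraries numbered 0. Conditions followed genotype and time in the labels. A Celf1 cassette named in the labels of induced mice, and a design text on Celf1 in muscle, were not used.

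limma 3.58.1 (R 4.3.3; lmFit, contrasts.fit, eBayes with trend) was fitted to log2(RPKM + 0.5) for 10557 genes, those whose mean reached 1 RPKM, with 5 groups in 1 fit and 6 comparisons. Benjamini-Hochberg adjustment covered all tested genes, and genes under 0.05 were called. The fit was tested on simulated data. Members and lists were chosen with earlier results of these data known. Named in the text are called members, members of lists of cardiac currents, the 10 highest members and the 5 largest uncalled changes at 7 d. Replicates are separate animals without numbers shared between groups. Gene positions and 3' UTRs are from GENCODE vM1 on mm9, in which 78 of the 80 members described matched a gene. The result for 1 further member is not reported here, and counts leave it out. Alternatives were pseudocounts of 0.1 and 1, no filter or a mean of at least 5 RPKM, median-ratio scaling, quantile normalization, title code and Y-linked mRNA as terms, the compared groups alone, library weights and leaving out each heart. Figures were drawn with matplotlib 3.10.9.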

Additional observations from a re-analysis of the deposited data

Results flagged for a closer look

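Levels differed between the 7 d and 12 h hearts for 3 potassium channel genes, by the contrast of their means in the common fit. The control hearts contribute to the variance estimate of that fit. The 7 d and 12 h groups differ in title code and Y-linked mRNA as well as in time, and these cannot be told apart. The log2 change between these times was 1.53 for Kcnj14, 0.77 for Kcnj12 and 0.52 for Kcnj5. For Kcnj14 and Kcnj12 the 12 h hearts were all below the control hearts (0.51 to 0.83 against 1.15 to 1.97 RPKM, and 11.58 to 14.34 against 15.46 to 17.18 RPKM), so the difference from 12 h was larger than that from control. For Kcnj5 the 12 h mean was above the control mean (9.98 and 8.26 RPKM), and the difference from 12 h was the smaller. All 3 hearts at 7 d and none at 12 h had Y-linked mRNA, and with Y-linked mRNA as a term none of the 3 was called by limma. Among control hearts, the heart with Y-linked mRNA had 8.52 RPKM of Kcnj5 beside 8.75 and 7.52, 17.18 RPKM of Kcnj12 beside 15.60 and 15.46, and 1.97 RPKM of Kcnj14 beside 1.15 and 1.82. No group had more than 3 hearts, so no heart was tested as an outlier.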

How the results depend on the processing

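Kcnj5 was called at 7 d against control under 16 of 17 alternatives, the exception being title code and Y-linked mRNA together, where 0 members were called. The other counts at 7 d against control (2 members) were 4 with median-ratio scaling, 4 with quantile normalization, 4 with title code as a term, 1 with Y-linked mRNA, 1 with a mean of at least 5 RPKM (which leaves Kcnn2 untested), 5 with the compared groups alone and 8 with gene-by-gene library weights. Leaving out 1 heart gave 1 to 3. For 7 d against 12 h (3 members) they were 5 without a filter, 1 with title code, 0 with Y-linked mRNA, 1 with both (Kcnip2, lower), 9 with gene-by-gene weights, and 2 to 4 leaving out 1 heart (Abcc9 was added without the 12 h heart A6742). At 12 h (0 members) they were 2 with title code, 1 with both terms and 3 with the weights. At 72 h (0 members) they were 1 with title code, 5 with the weights, and 0 to 1 leaving out 1 heart. For 24 h against 12 h (0 members) the unfiltered table gave 1, Kcng4. Calls over all tested genes moved too: with the weights 31.4% were called at 7 d against control, 48.1% at 7 d against 12 h, 12.8% at 12 h and 37.5% at 72 h, with title code 12.7%, 12.9%, 7.31% and 4.69%, and with the compared groups alone 11.0% at 7 d against control. All other counts stayed within 1.5 times, and at 24 h against control all were 0.

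With both terms the log2 change at 7 d against control turned to -0.013 for Kcnj12 and -0.22 for Kcnk3. With Y-linked mRNA alone it turned to 0.021 for Kcnv2, and for Kcnn2 against 12 h to -0.093, or -0.32 with both. The causes were not tested. The weights were chosen after seeing the data, because the planned library quality weights did not converge and were not run. No paired analysis was possible because the groups share no replicate numbers. Without read totals, the error of low genes cannot be split into counting and animal variation.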
